A study of Drosophila melanogaster with 20 samples.

Results

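The enzymes followed here belong to glycolysis and gluconeogenesis, together with the lactate dehydrogenase gene: Hex-A, Hex-C, Pgi, Pfk, fbp, Gapdh1, Pgk, Eno and ImpL3. Members were the listed genes whose probe set is annotated to that gene alone, which gave 8 of them, and ImpL3, whose current symbol is Ldh, was found through the study's additional data tables. The table that names its probe set lists genes the study called on these same arrays, so ImpL3 could enter only as a called gene, whereas the other 8 entered whatever their values. Its calls are therefore a description and no independent evidence. All 9 genes were measured, each by 1 probe set, of 10845 genes named alone by a probe set and 14010 probe sets in all. The study asked which transcripts change when manganese superoxide dismutase (MnSOD), a mitochondrial enzyme that turns superoxide into hydrogen peroxide, is switched on in adult Drosophila melanogaster by doxycycline (DOX) in the food. RNA from groups of 30 adult males was hybridized to 20 Affymetrix DrosGenome1 arrays, 4 in each of 5 groups. The MnSOD +DOX groups, at day 73 and at day 83, and the MnSOD -DOX group at day 73 carried the inducible transgene, inserted in line MnSOD(2)22, together with the transactivator of rtTA(3)E2. The control +DOX and control -DOX groups came from Oregon R crossed to the same transactivator and carried no MnSOD transgene. The labels give day 73 for these control flies, and the series' design text gives day 78. By the labels, the MnSOD -DOX and MnSOD +DOX day 83 groups were sampled at equal survival. All food held ampicillin, with DOX as the only addition in the +DOX groups. The transactivator is active in all tissues, and MnSOD(2)22 is 1 single-insert line, so that line and insertion site cannot be told apart. The labels call the samples biological replicates, without saying whether cultures were separate. All p-values here therefore concern the spread among these samples alone, which may be technical.

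Glycolysis splits glucose into pyruvate and yields ATP and NADH, and gluconeogenesis runs the reversible steps backwards with a few enzymes of its own. Hexokinase, phosphofructokinase and pyruvate kinase catalyse the practically irreversible steps, and fructose-1,6-bisphosphatase opposes phosphofructokinase. Lactate dehydrogenase reduces pyruvate to lactate and so returns NAD+ to the pathway when pyruvate does not enter the mitochondria. Adult flight muscle of flies burns carbohydrate at very high rates, and the sugar that circulates in the blood of flies is largely trehalose.

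ImpL3 was the member called with MnSOD on, at both ages, and 0 of the 8 members chosen by annotation were. It was 0.51 higher on the log2 scale in MnSOD +DOX flies at day 73 than in MnSOD -DOX flies and 0.71 higher at day 83, folds of 1.43 and 1.63. In these direct comparisons DOX and MnSOD cannot be told apart. No MnSOD -DOX group was sampled at day 83. Changes at day 83 are against MnSOD -DOX flies of day 73, so age cannot be told apart there either. The other 8 members, which span the steps from glucose to phosphoenolpyruvate, were not called in either comparison. Of all probe sets, 0.200% were called higher and 0.464% lower at day 73, and 3.01% and 6.26% at day 83. In control flies Pgi, fbp and Gapdh1 were called between the DOX groups, and ImpL3 differed by 0.03. There 12.1% of all probe sets were called higher and 14.1% lower. Calls follow the thresholds of the study's methods, an adjusted p below 0.01 with a fold of 1.2 or more, in 1 linear model over all 20 arrays. Values are RMA values on the log2 scale, so a difference of 1 is a doubling. A level cannot be set against that of another gene, because each probe set has its own affinity. Since RNA came from whole flies, fewer cells of a type and less RNA per cell cannot be told apart.

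**Figure D1:**
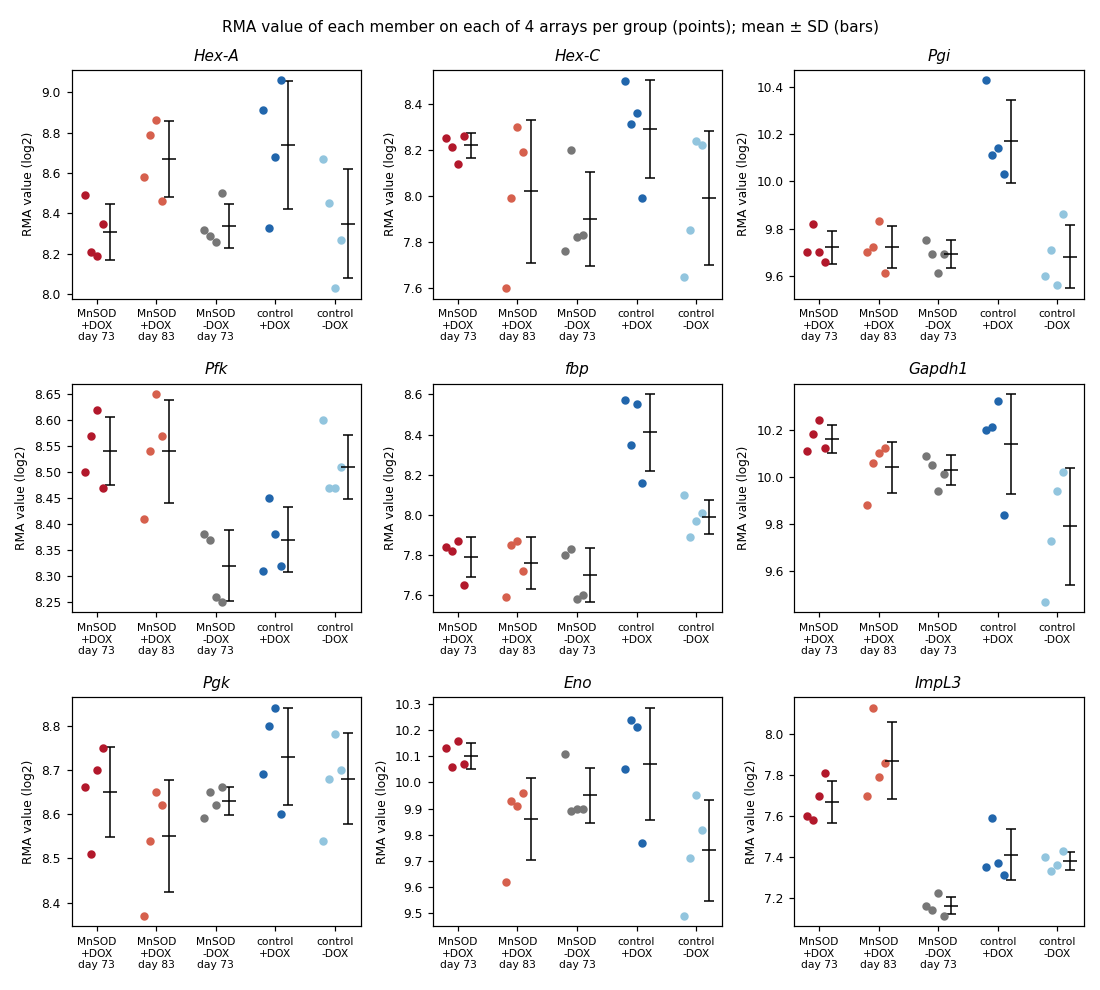
RMA values (log2, vertical axis) of the 9 members on the 4 arrays of each of the 5 groups (horizontal axis); points are arrays and bars the mean ± SD, and each panel has its own scale. ImpL3 lies between 7.58 and 8.13 on the 8 MnSOD +DOX arrays and between 7.11 and 7.22 on the MnSOD -DOX arrays, and Pgi and fbp stand apart in the control +DOX group.

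Several properties of the arrays bear on the results. Sod2, which encodes MnSOD, averaged 12.49 ± 0.12 in MnSOD +DOX flies at day 73 and 12.24 ± 0.0175 at day 83, against 8.42 ± 0.0477 in MnSOD -DOX flies, 7.94 ± 0.243 in control +DOX flies and 7.56 ± 0.135 in control -DOX flies (SD, n = 4 each). For the control flies, the direction of the DOX differences as labelled opposes the study's. The study describes immune genes as lowered by DOX in control flies, whereas the antimicrobial peptide gene Drs was 2.18 higher on the arrays labelled control +DOX. Moreover, the numbers of called probe sets in the DOX-corrected changes equal those the study gives, in each direction and at both ages, when the control groups are exchanged, and not as labelled. The groups stay as the labels have them here, but each member's main values that use control arrays are also given with the 2 control groups exchanged. An exchange turns the sign of every difference between the control groups, and it was not combined with the other alternatives. The array carries control probe sets for GAPDH at the 5′ and 3′ ends of the transcript, whose difference grows when RNA is degraded or copied incompletely. The annotation does not say whether they match Gapdh1 or Gapdh2, so for Gapdh1 this measure may come from the same transcript. This 3′ minus 5′ difference was 1.37, 1.43, 1.49 and 1.43 on the MnSOD +DOX arrays of day 73, 2.46, 1.87, 2.04 and 1.78 on those of day 83, and 1.31, 1.55, 1.46 and 1.6 on the MnSOD -DOX arrays. It was 1.18, 1.27, 1.03 and 1.88 on the control +DOX arrays and 3.22, 2.54, 2.21 and 2.0 on the control -DOX arrays. It thus differed by -0.049 between MnSOD +DOX flies at day 73 and MnSOD -DOX flies (exact two-sided permutation test, p = 0.543), by 0.56 at day 83 (p = 0.0286), and by -1.15 between control +DOX and control -DOX flies (p = 0.0286), where 0.0286 is the smallest p that 4 arrays against 4 allow. Over 5 such comparisons the adjusted p of the last 2 was 0.0357. The mean of the 9 spike-in probe sets was 8.41, 7.98, 8.09 and 9.69 on the control +DOX arrays, so that 3 of these 4 arrays stood below all the others.

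Among the markers of tissues in a whole male, 8 of 10 testis genes were called higher in MnSOD +DOX flies at day 83 than in MnSOD -DOX flies, with a mean level per array of 9.48 to 9.62 against 9.04 to 9.27, where 3.01% of all probe sets were higher and 6.26% lower. Of the markers of the male accessory gland and ejaculatory system 4 of 6 were called lower there, with 7.13 to 7.62 against 7.75 to 7.96. At day 73, 1 of these 6 was called higher and 0 lower, where 0.200% and 0.464% of all probe sets were. None of the 8 muscle markers was called in either comparison of MnSOD +DOX with MnSOD -DOX flies, with levels of 8.12 to 8.38 at day 73 and 8.15 to 8.28 at day 83, against 8.03 to 8.18 in MnSOD -DOX flies. Between the lines, 3 of 8 muscle markers were called higher and 7 of 10 testis markers lower in MnSOD -DOX than in control -DOX flies (3 and 6 with the control groups exchanged). Of all probe sets, 3.21% were higher and 3.33% lower there (9.11% and 8.90% exchanged). The part of these tissues in the members' results was not tested.

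The first step is the phosphorylation of glucose by hexokinase. Hex-A, the hexokinase that is widely expressed and abundant in flight muscle, read 8.49, 8.21, 8.19 and 8.35 in MnSOD +DOX flies at day 73 and 8.58, 8.79, 8.86 and 8.46 at day 83, against 8.32, 8.29, 8.26 and 8.5 in MnSOD -DOX flies. The day 73 values overlapped those of MnSOD -DOX flies over nearly their whole range, and 3 of the 4 day 83 values lay above all of them. The change was -0.03 at day 73 (SE 0.136, adjusted p = 0.99) and 0.33 at day 83 (adjusted p = 0.0874), and it was 0.36 between day 83 and day 73 (adjusted p = 0.0739). None of these passed the test. In control flies Hex-A read 8.91, 8.33, 8.68 and 9.06 with DOX and 8.67, 8.45, 8.03 and 8.27 without, with SDs of 0.317 and 0.269 and overlapping ranges. The difference of 0.39 had an adjusted p of 0.0241 and was not called.

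Hex-C, the other hexokinase measured, read 8.25, 8.21, 8.14 and 8.26 in MnSOD +DOX flies at day 73 and 7.6, 7.99, 8.3 and 8.19 at day 83, against 7.76, 8.2, 7.82 and 7.83 in MnSOD -DOX flies. At day 73 the 4 values lay between 8.14 and 8.26 and only 1 MnSOD -DOX array reached them. The change of 0.31 (SE 0.143) had an unadjusted p of 0.0381 and an adjusted p of 0.433 in limma's test over all probe sets, and at day 83 it was 0.12 (adjusted p = 0.585). In control flies Hex-C lay between 7.99 and 8.5 with DOX and between 7.65 and 8.24 without, a difference of 0.3 (adjusted p = 0.0926).

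Pgi, glucose-6-phosphate isomerase, turns glucose 6-phosphate into fructose 6-phosphate. It read 9.7, 9.82, 9.7 and 9.66 in MnSOD +DOX flies at day 73 and 9.7, 9.72, 9.83 and 9.61 at day 83, against 9.75, 9.69, 9.61 and 9.69 in MnSOD -DOX flies. The 3 groups of the MnSOD line overlapped throughout, with changes of 0.03 at either age (SE 0.0831, adjusted p = 0.976 at day 73 and 0.83 at day 83). In control flies Pgi read 10.43, 10.11, 10.14 and 10.03 with DOX, against 9.6, 9.71, 9.56 and 9.86 without DOX. The control +DOX arrays lay above every other array of the series. The difference was 0.49 (SE 0.0831, fold 1.41, adjusted p = 0.00016). Without control +DOX arrays 1 to 3, whose spike-ins were low, it was 0.34 (adjusted p = 0.232).

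Pfk and fbp encode the enzymes of opposite direction at the committed step. Phosphofructokinase makes fructose 1,6-bisphosphate, and fructose-1,6-bisphosphatase, a gluconeogenic enzyme, removes its phosphate again. Pfk read 8.5, 8.57, 8.62 and 8.47 in MnSOD +DOX flies at day 73 and 8.41, 8.54, 8.65 and 8.57 at day 83, against 8.38, 8.37, 8.26 and 8.25 in MnSOD -DOX flies. All 8 MnSOD +DOX arrays lay above all 4 MnSOD -DOX arrays. The change was 0.22 at each age (SE 0.0662, fold 1.17), below the fold of 1.2, with an adjusted p of 0.114 at day 73 and 0.0198 at day 83. Control flies ran the other way, with 8.31, 8.45, 8.38 and 8.32 with DOX against 8.6, 8.47, 8.47 and 8.51 without, again with no overlap. That difference of -0.14 was not called (adjusted p = 0.0782).

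fbp read 7.84, 7.82, 7.87 and 7.65 in MnSOD +DOX flies at day 73 and 7.59, 7.85, 7.87 and 7.72 at day 83, against 7.8, 7.83, 7.58 and 7.6 in MnSOD -DOX flies. The groups overlapped, and the changes were 0.09 (adjusted p = 0.897) and 0.05 (adjusted p = 0.718; SE 0.0919 each). In control flies it read 8.57, 8.35, 8.55 and 8.16 with DOX, against 8.1, 7.89, 7.97 and 8.01 without. All 8 control arrays lay above all 12 arrays of the MnSOD line, and the DOX groups did not overlap. The DOX difference was 0.41 (fold 1.33, adjusted p = 0.0014), and 0.16 (adjusted p = 0.702) without control +DOX arrays 1 to 3.

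Gapdh1 and Pgk catalyse the first energy-yielding steps, the oxidation of glyceraldehyde 3-phosphate and the transfer of the resulting phosphate to ADP. Gapdh1 read 10.11, 10.18, 10.24 and 10.12 in MnSOD +DOX flies at day 73 and 9.88, 10.06, 10.1 and 10.12 at day 83, against 10.09, 10.05, 9.94 and 10.01 in MnSOD -DOX flies. The day 73 values lay just above those of MnSOD -DOX flies, by 0.14 on average (SE 0.104, adjusted p = 0.804), and the day 83 values overlapped them (0.02, adjusted p = 0.938). In control flies Gapdh1 read 10.2, 10.21, 10.32 and 9.84 with DOX, against 9.47, 9.73, 9.94 and 10.02 without. The difference was 0.36 (SE 0.104, adjusted p = 0.00927), just inside the threshold, and the call was lost when any 1 of 16 of the 20 arrays was left out (adjusted p between 0.0107 and 0.0427). The lowest control -DOX value stood on the array with the largest 3′ minus 5′ difference, 3.22, and the lowest control +DOX value on the array with 1.88. Pgk stayed within 8.37 to 8.84 on all 20 arrays, and its largest difference in a direct comparison was -0.11, between day 83 and day 73 with MnSOD on (adjusted p = 0.361).

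Eno, enolase, makes phosphoenolpyruvate. It read 10.13, 10.06, 10.16 and 10.07 in MnSOD +DOX flies at day 73 and 9.62, 9.93, 9.91 and 9.96 at day 83, against 10.11, 9.89, 9.9 and 9.9 in MnSOD -DOX flies. The day 83 values lay below all those of day 73, by 0.25 on average, which did not pass the test (SE 0.103, adjusted p = 0.108), and the 3′ minus 5′ difference was 0.61 larger at day 83 (exact two-sided permutation test, p = 0.0286). Against MnSOD -DOX flies the change was 0.16 (adjusted p = 0.736) at day 73 and -0.09 (adjusted p = 0.557) at day 83. In control flies Eno read 10.05, 10.24, 10.21 and 9.77 with DOX, against 9.49, 9.71, 9.95 and 9.82 without, a difference of 0.32 (adjusted p = 0.0153).

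ImpL3 encodes lactate dehydrogenase, which ends the anaerobic branch. It read 7.6, 7.58, 7.7 and 7.81 in MnSOD +DOX flies at day 73 and 7.7, 8.13, 7.79 and 7.86 at day 83, against 7.16, 7.14, 7.22 and 7.11 in MnSOD -DOX flies. No MnSOD +DOX array reached the MnSOD -DOX range. The SD was 0.103 in MnSOD +DOX flies at day 73, 0.188 at day 83 and 0.0428 in MnSOD -DOX flies. The change was 0.51 at day 73 (SE 0.0832, adjusted p = 0.00077) and 0.71 at day 83 (SE 0.0832, adjusted p = 6.48e-06). Between day 83 and day 73 it was 0.2 and was not called (adjusted p = 0.112). Control flies read 7.35, 7.59, 7.37 and 7.31 with DOX and 7.4, 7.33, 7.36 and 7.43 without, and the groups overlapped (0.03, SE 0.0832, adjusted p = 0.785). Every control array lay above every MnSOD -DOX array, and 1 control +DOX array, at 7.59, passed the lowest MnSOD +DOX array of day 73, at 7.58. Against MnSOD -DOX flies the 3′ minus 5′ difference moved by -0.049 at day 73 and by 0.56 at day 83. A limma fit chosen after seeing the data took that difference as a covariate. There ImpL3 was 0.51 higher at day 73 (adjusted p = 0.000529) and 0.77 higher at day 83 (adjusted p = 2.22e-05). The part of RNA quality in the ImpL3 changes was not tested. Both direct calls also held with each array left out in turn. Since a call was the condition for naming this probe set, these p-values describe the arrays and do not test the choice.

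**Figure D2:**
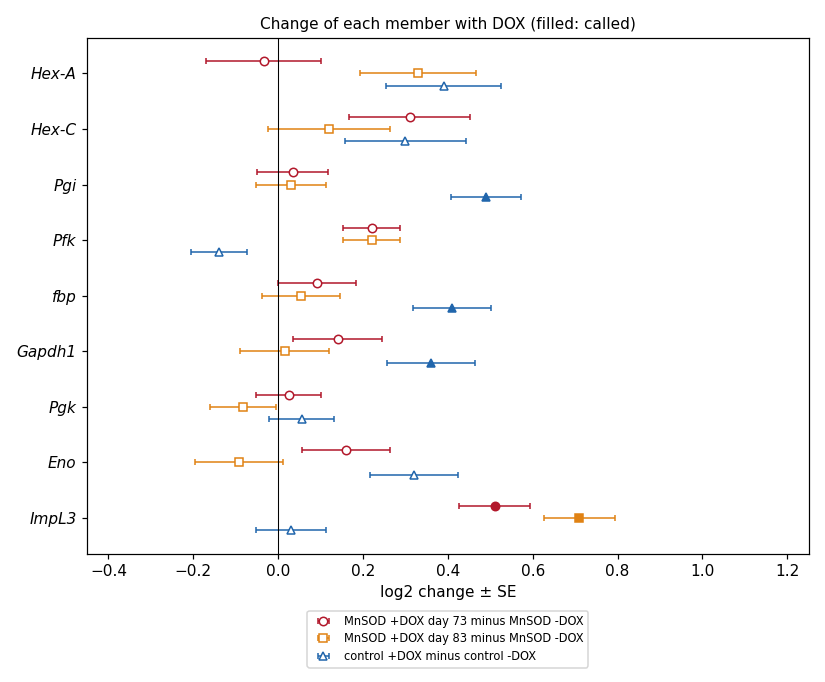
log2 change with its SE (horizontal axis) of each member (vertical axis) with DOX, in the MnSOD line at day 73 and day 83 and in control flies as labelled; filled symbols were called. ImpL3 is filled at both ages of the MnSOD line, at 0.51 and 0.71, and Pgi, fbp and Gapdh1 in control flies, at 0.49, 0.41 and 0.36.

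Counted over the pathway, 1 of 9 members was called higher and 0 lower at day 73 in MnSOD +DOX against MnSOD -DOX flies, where 0.200% of all probe sets were called higher and 0.464% lower. The 1 was ImpL3, whose choice used calls on these same arrays, so nothing is read from this count. At day 83 the members' counts were again 1 and 0, against 3.01% and 6.26% of all probe sets. Hex-C and Pfk at day 73, and Hex-A and Pfk at day 83, had an unadjusted p under 0.05 in limma's test and were not called. No member was called between day 83 and day 73 with MnSOD on, where 0.949% of probe sets were higher and 2.74% lower, and 3 members, Hex-A, Eno and ImpL3, had an unadjusted p under 0.05. The median of the 9 members was 0.14 at day 73 and 0.05 at day 83, beside medians of all probe sets of -0.0012 and -0.035. Each pair of these 3 comparisons shares a group of arrays.

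Between control +DOX and control -DOX flies, 3 of 9 members were called higher and 0 lower, where 12.1% of all probe sets were called higher and 14.1% lower. The median of the members was 0.32 and that of all probe sets -0.05. With the control groups exchanged these 3 members are lower, Pgi at -0.49, fbp at -0.41 and Gapdh1 at -0.36, and the shares become 14.1% higher and 12.1% lower. Without control +DOX arrays 1 to 3, 0 members were called by limma, and 0 also with the spike-in mean or, chosen after seeing the data, the 3′ minus 5′ difference as a covariate. Over these 3 settings Gapdh1 stood at 0.05, 0.05 and -0.16 and fbp at 0.16, 0.17 and 0.25, whereas Pgi stood at 0.34, 0.42 and 0.34 and Hex-A, at 0.39 in the fit of all arrays, at 0.71, 0.73 and 0.79 (lowest adjusted p = 0.0375). Without the 3 arrays the remaining control +DOX array is assumed to vary like the other groups.

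The DOX-corrected change subtracts the DOX difference of control flies from that of the MnSOD line, a subtraction that the study's methods also make. At day 83 it also holds the age difference within the MnSOD line. With the control groups as labelled, at day 73, 1 member was called higher and 0 lower, where 2.22% of probe sets were called higher and 3.78% lower. ImpL3 was 0.48 higher (SE 0.118, adjusted p = 0.00828), a call that was lost when any 1 of 15 of the 20 arrays was left out (adjusted p between 0.0101 and 0.0222). Pfk stood at 0.37 (adjusted p = 0.0107) and Pgi at -0.46 (adjusted p = 0.0114), both just outside the threshold. At day 83, 2 members were called higher and 1 lower, where 8.13% and 9.49% of probe sets were. ImpL3 was 0.68 higher (adjusted p = 0.000211), Pfk 0.37 higher (SE 0.0936, adjusted p = 0.00508) and Pgi 0.46 lower on the log2 scale, a change of -0.46 (SE 0.118, adjusted p = 0.00513). Eno stood at -0.42 (adjusted p = 0.032), fbp at -0.36 (adjusted p = 0.0362) and Gapdh1 at -0.34 (adjusted p = 0.0773). For Pgi the direct change in the MnSOD line was 0.03, so that nearly all of the corrected value was the difference between the control groups. For Pfk it combined a change of 0.22 in the MnSOD line with one of -0.14 in control flies. With the 3′ minus 5′ difference as a covariate, 0 members were called by limma in the corrected changes, and ImpL3, with an adjusted p of 0.0324 at day 73 and 0.018 at day 83, stood at 0.6 and 0.86.

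With the control groups exchanged, the reading that gives the study's numbers of called probe sets, the corrected changes of Hex-A, Pgi, fbp, Gapdh1 and Eno had the opposite sign at both ages. At day 73, 3 members were called higher and 0 lower, where 4.68% and 4.58% of probe sets were: Pgi at 0.53 (adjusted p = 0.00471), fbp at 0.5 (adjusted p = 0.00911) and ImpL3 at 0.54 (adjusted p = 0.0041). Hex-C, Gapdh1 and Eno stood at 0.61, 0.49 and 0.48 and were not called (adjusted p = 0.0289, 0.0184 and 0.0201). At day 83, 4 members were called higher and 0 lower, where 6.12% and 10.5% of probe sets were. They were Hex-A at 0.72 (adjusted p = 0.00769), Pgi at 0.52 (adjusted p = 0.00283), fbp at 0.47 (adjusted p = 0.00975) and ImpL3 at 0.74 (adjusted p = 0.000367). In the direct comparisons Pgi changed by 0.03 at either age, and fbp by 0.09 and 0.05. Nearly all of the corrected Pgi value and most of that of fbp was thus again the difference between the control groups. The study lists Pgi, fbp and lactate dehydrogenase among the genes raised by MnSOD. Pfk stood at 0.08 at either age (adjusted p = 0.526 at day 73 and 0.521 at day 83). The median of the members was -0.17 at day 73 and -0.18 at day 83 as labelled, and 0.49 and 0.42 with the groups exchanged, beside medians of all probe sets of 0.07, 0.0076, -0.04 and -0.08. ImpL3 was called higher under both readings of the control labels, though at day 73 as labelled not without most single arrays. Its probe set was named through the study's calls on these same arrays, so these calls are a description and no independent evidence. Pgi changed sign between the readings.

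**Figure D3:**
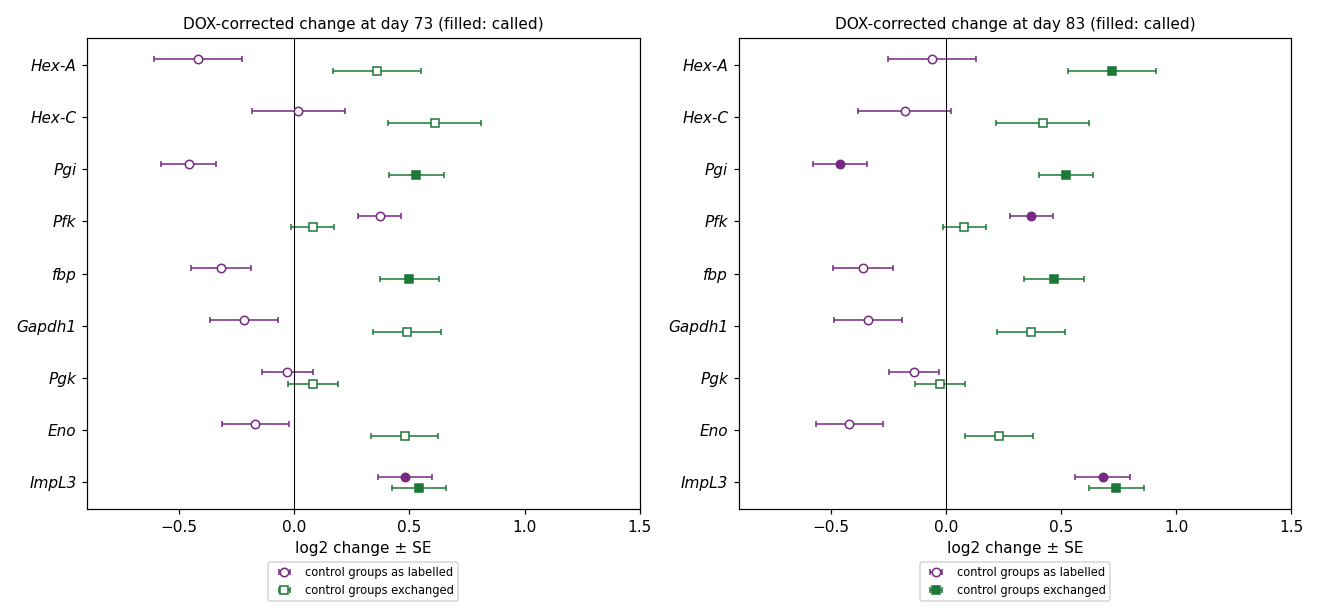
DOX-corrected log2 change with its SE (horizontal axis) of each member (vertical axis) at day 73 (left) and day 83 (right), with the control groups as labelled and exchanged; filled symbols were called. ImpL3 lies between 0.48 and 0.74 in all 4 cases, whereas Pgi is at -0.46 as labelled and at 0.53 and 0.52 with the groups exchanged.

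No member was called between MnSOD -DOX and control -DOX flies, where 3.21% of probe sets were higher and 3.33% lower, and limma gave 4 members an unadjusted p under 0.05. Of these fbp stood at -0.29 (adjusted p = 0.0362), Pfk at -0.19 (adjusted p = 0.0502), ImpL3 at -0.22 (adjusted p = 0.079) and Gapdh1 at 0.24 (adjusted p = 0.128). Set against the arrays labelled control +DOX instead, where 9.11% of probe sets were higher and 8.90% lower, 2 members were called lower in MnSOD -DOX flies, fbp at -0.7 (adjusted p = 1.79e-05) and Pgi at -0.49 (adjusted p = 0.000249). The 3′ minus 5′ difference was 1.01 smaller in MnSOD -DOX than in control -DOX flies, a difference of -1.01 (exact two-sided permutation test, p = 0.0286).

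The members did not vary as one block from array to array. After subtraction of group means, the correlation over the 20 arrays had a median of 0.245 over the 36 pairs of members and was above 0 in 28. It ran from -0.612 between Hex-A and Eno to 0.877 between Gapdh1 and Eno. Arrays share their depth of labelling and their RNA quality, and these correlations are a description. With the 3′ minus 5′ difference of the same array, which may be measured on Gapdh1 itself, the within-group correlation was -0.927 for Gapdh1, -0.868 for Eno, -0.74 for Hex-C and -0.663 for Pgk, while it was 0.516 for Hex-A, -0.295 for ImpL3 and -0.0744 for Pfk. Gapdh1 and Eno were thus low on arrays with a large 3′ minus 5′ difference, and their values in the groups where it was large, control -DOX and MnSOD +DOX day 83, stand beside it.

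**Figure D4:**
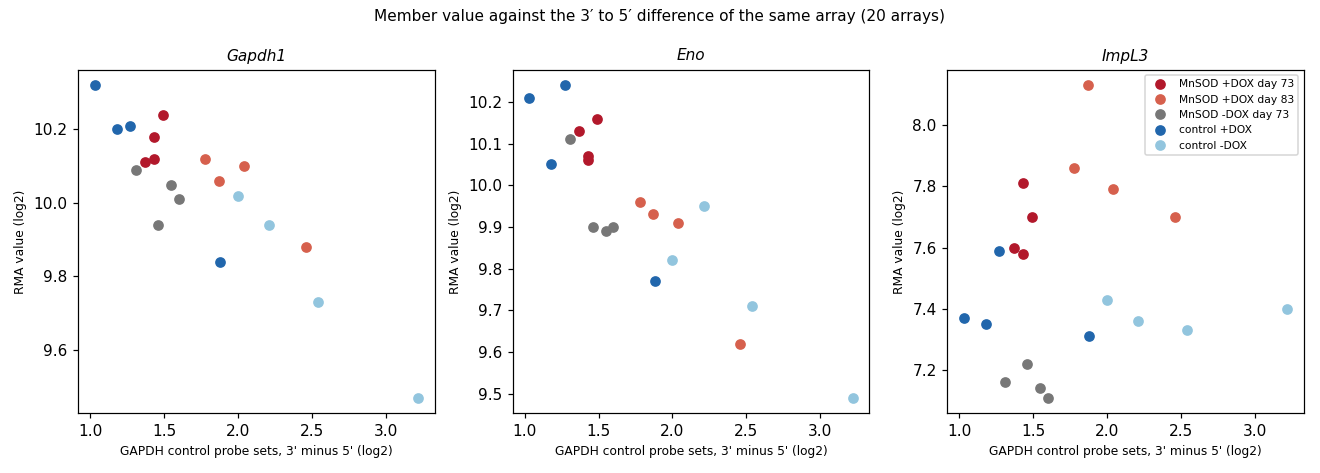
RMA values (log2, vertical axis) of Gapdh1, Eno and ImpL3 against the 3′ minus 5′ difference of the GAPDH control probe sets (log2, horizontal axis) on each of the 20 arrays, coloured by group. Gapdh1 and Eno are lowest, at 9.47 and 9.49, on the control -DOX array with a difference of 3.22. For ImpL3 the MnSOD -DOX arrays lie below every other array, whereas each other group overlaps with the next in level.

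Over the 20 arrays, the 5 genes whose level correlated most with that of ImpL3 were Tspo (r = 0.842), GstD2 (0.835), FeCH (0.809), Hsp60A (0.808) and Sod2 itself (0.792). Tspo encodes a protein of the outer mitochondrial membrane, GstD2 a glutathione S-transferase, FeCH ferrochelatase, the last enzyme of haem synthesis, and Hsp60A the mitochondrial chaperonin. The 20 points share 5 groups, between which both ImpL3 and Sod2 differed.

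Of 16 further genes listed for the steps of glycolysis, 12 had a probe set naming them alone. They included aldolase, phosphoglycerate mutases and genes of the pyruvate kinase family, whereas triose phosphate isomerase, Gapdh2 and PyK had none. Of the 12, 0 were called in MnSOD +DOX against MnSOD -DOX flies at either age. Their median was 0.15 at day 73 and -0.015 at day 83. Between day 83 and day 73, where 0.949% of all probe sets were called higher and 2.74% lower, 1 was called lower. It was CG2964, a gene of the pyruvate kinase family, at -0.57 (adjusted p = 0.00971). CG7069, another of that family, was 0.96 higher in control +DOX than in control -DOX flies (adjusted p = 0.000877). It read 6.07, 4.87, 5.08 and 4.84 in control +DOX flies and 3.92, 4.34, 4.3 and 4.47 in control -DOX flies, with the first control +DOX array far above the rest. That comparison called 12.1% of all probe sets higher and 14.1% lower, and 1 of these 12 genes. In the corrected changes as labelled, 0 of the 12 were called at day 73. At day 83, 2 were called lower and 0 higher, where 9.49% and 8.13% of all probe sets were. They were CG7069 at -1.05 (adjusted p = 0.00741) and CG2964 at -0.72 (adjusted p = 0.00731). With the control groups exchanged they stood at 0.86 and -0.11 there and were not called. Exchanged, CG7069 and CG12229 were called higher at day 73, at 1.24 (adjusted p = 0.00513) and 0.76 (adjusted p = 0.00823). Of all probe sets, 4.68% were higher and 4.58% lower there.

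Gluconeogenesis and the fates of pyruvate were represented by 10 of 12 listed genes. At day 73, 1 was called higher and 0 lower in MnSOD +DOX against MnSOD -DOX flies, where 0.200% and 0.464% of all probe sets were, and at day 83 1 and 1, where 3.01% and 6.26% were. The gene called higher at both ages was Pepck1, phosphoenolpyruvate carboxykinase, which commits carbon to glucose synthesis. It read 11.04, 11.38, 11.39 and 11.1 at day 73 and 11.21, 11.18, 11.32 and 11.24 at day 83 in MnSOD +DOX flies, against 10.61, 10.77, 10.63 and 10.67 in MnSOD -DOX flies. No array overlapped, and the change was 0.55 (SE 0.0896, adjusted p = 0.000756) and 0.57 (adjusted p = 0.000171). In control flies Pepck1 ran the other way as labelled, with 10.69, 10.96, 11.0 and 11.07 with DOX and 11.47, 11.25, 11.28 and 11.35 without (-0.4, adjusted p = 0.00137; 0.4 with the groups exchanged). The corrected change was 0.96 at day 73 and 0.97 at day 83 as labelled, but 0.15 (adjusted p = 0.369) and 0.16 (adjusted p = 0.317) with the control groups exchanged.

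PCB, pyruvate carboxylase, which feeds pyruvate into gluconeogenesis and the citric acid cycle, was the gene called lower at day 83. It read 9.49, 9.49, 9.59 and 9.61 there, against 9.92, 9.97, 9.98 and 10.16 in MnSOD -DOX flies, a change of -0.46 (adjusted p = 0.00595) without overlap. In control flies it was 0.62 higher with DOX as labelled (adjusted p = 0.000283), and its corrected changes, called at -0.91 and -1.08 as labelled, were 0.32 and 0.16 and not called with the groups exchanged. Pdk, the kinase that inhibits pyruvate dehydrogenase, was called in the corrected changes as labelled, at 0.51 (adjusted p = 0.00717) and 0.45 (adjusted p = 0.00813), and stood at 0.13 and 0.07 with the groups exchanged (adjusted p = 0.421 and 0.696). Between the lines, 0 of the 10 genes were called higher and 3 lower in MnSOD -DOX than in control -DOX flies. Of all probe sets, 3.21% were higher and 3.33% lower there. The 3 were Pepck2, a paralogue of Pepck1, at -0.87, Pepck1 at -0.66 and Pdk at -0.47 (adjusted p = 4.5e-07, 2.59e-05 and 0.000736). Against the arrays labelled control +DOX only Pepck2 was called, at -0.94, where 9.11% of all probe sets were higher and 8.90% lower.

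**Figure D5:**
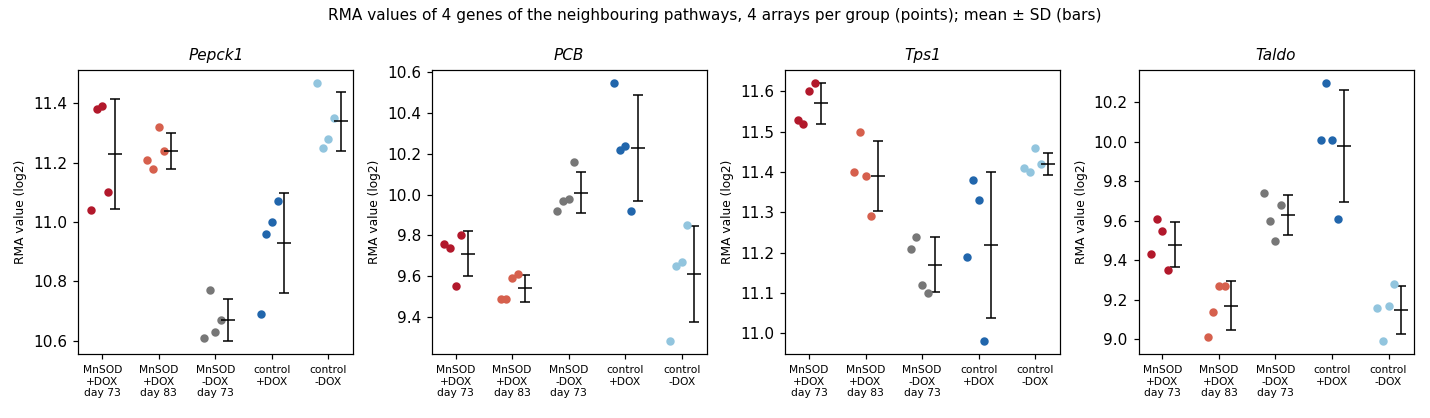
RMA values (log2, vertical axis) of Pepck1, PCB, Tps1 and Taldo on the 4 arrays of each of the 5 groups (horizontal axis); points are arrays and bars the mean ± SD, and each panel has its own scale. Pepck1 is at 11.04 to 11.39 on the MnSOD +DOX arrays and at 10.61 to 10.77 on the MnSOD -DOX arrays, and PCB is at 9.49 to 9.8 on the MnSOD +DOX arrays and at 9.92 to 10.16 on the MnSOD -DOX arrays.

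In the sugar stores, 1 of 10 measured trehalose and glycogen genes was called higher and 0 lower at day 73 in MnSOD +DOX against MnSOD -DOX flies, and 0 at day 83. Of all probe sets, 0.200% were higher and 0.464% lower at day 73, and 3.01% and 6.26% at day 83. The gene called was Tps1, trehalose-6-phosphate synthase, which makes the circulating sugar. It read 11.53, 11.52, 11.6 and 11.62 at day 73 and 11.4, 11.5, 11.39 and 11.29 at day 83 in MnSOD +DOX flies, against 11.21, 11.24, 11.12 and 11.1 in MnSOD -DOX flies. The change was 0.4 at day 73 (adjusted p = 0.00456). Tps1 in control flies read 11.19, 11.38, 11.33 and 10.98 with DOX as labelled and 11.41, 11.4, 11.46 and 11.42 without. For Tps1 all control -DOX arrays thus lay above all MnSOD -DOX arrays. Of the 10 genes, 3 were called higher and 0 lower in MnSOD -DOX than in control -DOX flies, where 3.21% and 3.33% of all probe sets were. In the corrected changes as labelled, 1 was higher at day 73 (2.22% of all probe sets). At day 83, 1 was higher (8.13%) and 4 were lower (9.49%). With the groups exchanged, 1 was higher at day 73 (4.68%) and 0 were called at day 83. In control flies 4 of the 10 were called higher with DOX as labelled, the trehalose-phosphatase genes CG5171 at 0.69 and CG5177 at 0.45, Glyp, glycogen phosphorylase, at 0.38 and Glys, glycogen synthase, at 0.36, all of them lower with the groups exchanged, beside the 12.1% of all probe sets called higher and 14.1% lower as labelled. Of the pentose phosphate genes, 5 of 7 had a probe set. In MnSOD +DOX against MnSOD -DOX flies 0 were called at day 73 and 1 lower at day 83, where 6.26% of all probe sets were. That was Taldo, transaldolase, at 9.01, 9.14, 9.27 and 9.27 in MnSOD +DOX flies, against 9.74, 9.6, 9.5 and 9.68 in MnSOD -DOX flies (-0.46, adjusted p = 0.00472). In control flies Taldo was 0.83 higher with DOX as labelled (adjusted p = 9.9e-06), with Pgls at 0.48 and Rpe at 0.42 beside it, so that 3 of 5 were called. The corrected change of Taldo was -0.98 and -1.29 as labelled, and 0.68 (adjusted p = 0.00451) and 0.37 (adjusted p = 0.0571) with the groups exchanged. Of the glycerol branch, 5 of 6 genes had a probe set and 0 were called in MnSOD +DOX against MnSOD -DOX flies at either age. In control flies Gpdh3, a glycerol-3-phosphate dehydrogenase, and Gk1, a glycerol kinase, were 0.87 and 0.52 higher with DOX as labelled (adjusted p = 9.64e-05 and 0.000299). In the corrected changes as labelled, 0 of the 5 were called at day 73. At day 83, 1 was lower and 0 higher, where 9.49% and 8.13% of all probe sets were. The median of the 5 was -0.39 and -0.43 as labelled, and 0.23 and 0.087 with the groups exchanged. Exchanged, Gpdh3 and Gk1 were called higher at both ages, Gpdh3 at 1.12 and 1.06 and Gk1 at 0.65 and 0.61. Of all probe sets, 4.68% were higher at day 73 there and 6.12% at day 83.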

How the data were processed

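Total RNA from whole adult males was hybridized to DrosGenome1 arrays. The authors ran RMA (affy package, version not given in the sources used here) over the arrays together and deposited the log2 values as 1 table. Its 20 columns matched the sample labels. The array medians ran from 5.49 to 5.68, and the number of arrays limits the precision. The platform annotation assigns 1 gene to 12444 of 14010 probe sets, more than 1 to 327 and none to 1239; names were taken from the first kind alone, except for ImpL3, named through the study's table of genes it called on these arrays. No sequence or coordinate is given, since the sources used here pair none with the probe sets.

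All 20 arrays entered 1 limma model with a mean per group and empirical Bayes moderation (R 4.3.3, limma 3.58.1). P-values were adjusted by Benjamini-Hochberg over all probe sets within each of 7 contrasts. Calls required an adjusted p below 0.01 together with a fold of 1.2 or more. Single array measures were tested by exact two-sided permutation. Figures used matplotlib 3.10.9, and tables pandas 2.3.3 and numpy 2.4.6, under Python 3.11.15. On simulated data of the day 73 contrast over 14010 probe sets, 82 of 100 changes of 0.5 and 100 of 100 of 1 were recovered.

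The members and gene lists were chosen with earlier results of these data known. Named are all members, at most 3 called genes per wider list and contrast, the 5 genes most like ImpL3, and Sod2; Drs and Glys were chosen after their values were seen. Alternatives were a fit on the groups of a contrast, the replicate number as a block, a filter on low values, median centring, quantile normalization again, array weights, exchanged control groups, leaving out arrays, the spike-in mean as a covariate, other thresholds and, added after seeing the data, the GAPDH 3′ minus 5′ difference as a covariate.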

Additional observations from a re-analysis of the deposited data

Results flagged for a closer look

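In 3 of 45 combinations of member and group, 1 array stood far from the other 3, by a criterion that chance meets in about 1 in 20 groups. Hex-C had its highest MnSOD -DOX value, 8.2, on array 2, against 7.76 to 7.83 on the others. Eno had its lowest MnSOD +DOX day 83 value, 9.62, on array 1, against 9.91 to 9.96 on the others, and that array also had the largest 3′ minus 5′ difference of its group, 2.46. Eno had its highest MnSOD -DOX value, 10.11, on array 1, against 9.89 to 9.9 on the others, and that array had the smallest 3′ minus 5′ difference of its group, 1.31.

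For 3 members the change with DOX differed between the MnSOD line and control flies in limma's test of the difference itself. ImpL3 differed by 0.48 at day 73 and by 0.68 at day 83, Pfk by 0.37 at day 83 and Pgi by -0.46 at day 83. With the control groups exchanged ImpL3 stood at 0.54 and 0.74, Pfk at 0.08 and Pgi at 0.52.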

How the results depend on the processing

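Of 2016 values of members under other settings, 1789 kept direction and side of the threshold, 111 changed sign without a call in either setting, 38 became called, 68 lost their call and 10 reversed. Counts of called members that moved by over 1.5 times were as follows, beside 1 (MnSOD +DOX against MnSOD -DOX at day 83), 3 (control flies), 1 and 3 (corrected at day 73 and day 83) and 0 (between the lines). With only the groups of a contrast in the fit, control flies gave 1, day 73 gave 2 and day 83 gave 1. Leaving out the lowest 40% of probe sets gave 3 at day 73. Median centring and array weights gave 2 each for MnSOD +DOX at day 83, and array weights gave 4 and 5 for the corrected changes. Quantile normalization again gave 2 at day 73 and 1 between the lines. In control flies it gave fbp at 0.2 (adjusted p = 0.0444) and Gapdh1 at 0.19 (adjusted p = 0.0998), no longer called, and called Pfk at -0.36, and at day 83 Pgi lost its corrected call (-0.28). Median centring took the corrected calls of ImpL3 at day 73 (adjusted p = 0.0122) and Pgi at day 83 (adjusted p = 0.0106), and called Pgi at day 73 (-0.51). Exchanging the control groups gave 3 at day 73 and 2 between the lines. It reversed Pgi (-0.49), fbp (-0.41) and Gapdh1 (-0.36) in control flies, Pgi (0.53) and fbp (0.5) at day 73, Hex-A (0.72), Pgi (0.52) and fbp (0.47) at day 83 and Pgi between the lines (-0.49). Without control +DOX arrays 1 to 3, control flies gave 0, day 73 gave 0 and day 83 gave 1. The spike-in covariate gave 0 in control flies and at day 73. The 3′ minus 5′ covariate gave 0 in control flies and at both corrected ages, with Gapdh1 at -0.16 in control flies and ImpL3 at 0.6 (adjusted p = 0.0324) and 0.86 (adjusted p = 0.018). An adjusted p under 0.05 with no fold minimum gave 2 for MnSOD +DOX at day 83, 5 in control flies, 3 and 5 for the corrected changes and 1 between the lines. The causes of these moves were not tested.

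Leaving out 1 array at a time gave 1 to 2 called members for MnSOD +DOX at day 83, 2 to 4 in control flies, 0 to 3 for the corrected change at day 73 and 1 to 5 at day 83. The corrected call of ImpL3 at day 73 was lost when any 1 of 15 of the 20 arrays was left out, all but MnSOD +DOX day 83 arrays 1, 2 and 3 and control +DOX arrays 2 and 4 (adjusted p from 0.0101 to 0.0222), and that of Gapdh1 in control flies for any 1 of 16, all but MnSOD +DOX day 83 array 1, control -DOX arrays 3 and 4 and control +DOX array 4 (0.0107 to 0.0427). At day 83 Pfk lost its corrected call without MnSOD -DOX array 3 or 4, MnSOD +DOX day 83 array 3 or control +DOX array 1, and Pgi without MnSOD -DOX array 1, MnSOD +DOX day 83 array 4, control -DOX array 3 or control +DOX array 1 (adjusted p from 0.0118 to 0.0129). Without control +DOX array 4, Eno and fbp were also called there, and Pfk was called in MnSOD +DOX flies at day 83 without day 83 array 1 (adjusted p = 0.00811). The direct calls of ImpL3 held under every setting run. Since its probe set was named through calls on these same arrays, this describes the arrays and is no independent evidence. The replicate numbers did not pair the samples: 6 of 40 correlations of deviations between same-numbered arrays were over 0.1 (from -0.39 to 0.361), and 8 were the best of their array. With the replicate number as a block, 0 members were called in the corrected change at day 73, where ImpL3 had an adjusted p of 0.0115, and Gapdh1 in control flies had 0.0107. Each member has 1 probe set, so another probe set could not be tried.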
